A study of Homo sapiens with 18 samples.

Results

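The Wnt genes described here are the ligands, their secretion factor, the receptors and coreceptors, the secreted inhibitors, the R-spondins and their LGR receptors, 2 receptor ubiquitin ligases, and the cytoplasmic and transcription factors that carry the signal. They were chosen by gene symbol alone, and 60 of the 50119 genes in the deposited table matched. Messenger RNA was sequenced in 18 libraries, 3 in each of 6 groups, all made from a human osteosarcoma cell line that the paper names Saos-2 and the sample labels spell Soas-2, with a wild-type genotype in the labels. D-2 were cells on plastic, D-3 were cells in Matrigel (a basement membrane gel), and DP-3 was printed tissue, in which the cells were held in a bioink of methacrylated gelatin and alginate; all 3 were sampled on day 14. DP-3 day 1 was the same printed tissue on day 1 of culture. FIT, the control of the study, was fresh tumor tissue taken from BALB/c nude mice 2 weeks after cells were implanted under the skin in Matrigel, at a host age of 4 weeks. IT was isolated tissue, that is pieces of such tumors kept on Matrigel in medium until day 14. FIT and IT came out of a mouse, so both may hold host cells, and the other groups are a single line in culture. The sources do not say which mouse gave which library or whether replicates were separate cultures, so p-values measure the spread between these libraries, which may be technical.

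Wnt ligands are secreted lipid-modified proteins. The membrane protein WLS carries them to the cell surface, where they bind a frizzled receptor together with LRP5 or LRP6. In the canonical branch this halts the breakdown of beta-catenin, the product of CTNNB1, which then enters the nucleus and works with TCF and LEF proteins. DKK proteins block the LRP coreceptors, SFRP proteins and WIF1 bind the ligands, and RNF43 and ZNRF3 remove frizzled proteins from the surface unless an R-spondin bound to an LGR receptor holds them back. In bone, Wnt signals are known to drive osteoblast formation.

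The labelled line was set against osteoblast genes first. SPARC, a matrix protein of bone, lay between 111 and 289 FPKM (fragments per kilobase of transcript, scaled to the fragments sequenced, a level per length that can be compared between genes), COL1A1 lay between 1.79 and 21.0 and RUNX2, a master regulator of osteoblasts, between 0.61 and 2.41. ALPL, the alkaline phosphatase for which Saos-2 cells are known, did not exceed 0.148 FPKM in any of the 18 libraries. IBSP, bone sialoprotein, was listed at 0 in 16 of them and SP7, the osteoblast factor osterix, in 12, and PTH1R, the parathyroid hormone receptor, did not exceed 0.114 FPKM. These values went against the label, and the cells are called here by it only as a label.

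Total estimated counts ran from 23721666 in FIT replicate 3, the shallowest library, and from 50327345 in the next lowest, up to 79082786. Summed FPKM of host marker lists were, over all libraries, 24.4 to 48.7 for endothelial, 19.7 to 117 for macrophage, 16.3 to 41.7 for keratinocyte, 0.115 to 5.23 for skeletal muscle, 0.155 to 8.71 for adipocyte and 0 to 0.844 for red blood cell genes. TIE1 and KRT10 made up most of the endothelial and keratinocyte sums in every group. Some other genes of these lists were higher in the tumors, while EMCN, KDR and VWF of the endothelial list were not. Of the other lists, KRT1, DSG3, CKM, TYROBP and FABP4 had a mean of 0 FPKM in FIT. The muscle gene DES had a mean of 0.286 in FIT and 1.15 in D-3. The macrophage genes CD68, CSF1R and FCER1G had their lowest means in FIT. PECAM1 stood at 2.93 to 5.01 FPKM in the FIT and IT libraries against 0.792 to 1.80 in the cultured groups, and CDH5 at 0.320 to 1.34 against 0.0228 to 0.149. KRT5 was at 0.642 to 2.04 FPKM in FIT and at most 0.1001 in all other libraries, KRT14 at 10.4, 1.67 and 0.115 in FIT and at most 0.336 elsewhere, and MYH2, a muscle myosin, at 3.61 in FIT replicate 3 and at most 0.0709 in all other libraries. The fibroblast list stood at 24.6 to 33.6 in FIT, 15.6 to 22.4 in IT, 16.8 to 19.2 in D-2, 15.0 to 19.0 in DP-3, 9.14 to 10.4 in D-3 and 12.3 to 12.9 in DP-3 day 1, and most of it was PDGFRA, with DCN near 0 in every group. All libraries of DP-3 day 1 listed many silent genes above 0: 221 to 238 of 374 olfactory receptor genes, against 16 to 60 in the other libraries, a count made after the data were seen. The number of Wnt genes above 0 was 47 to 53 of 60 in DP-3 day 1 and 38 to 48 elsewhere.

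**Figure D1:**
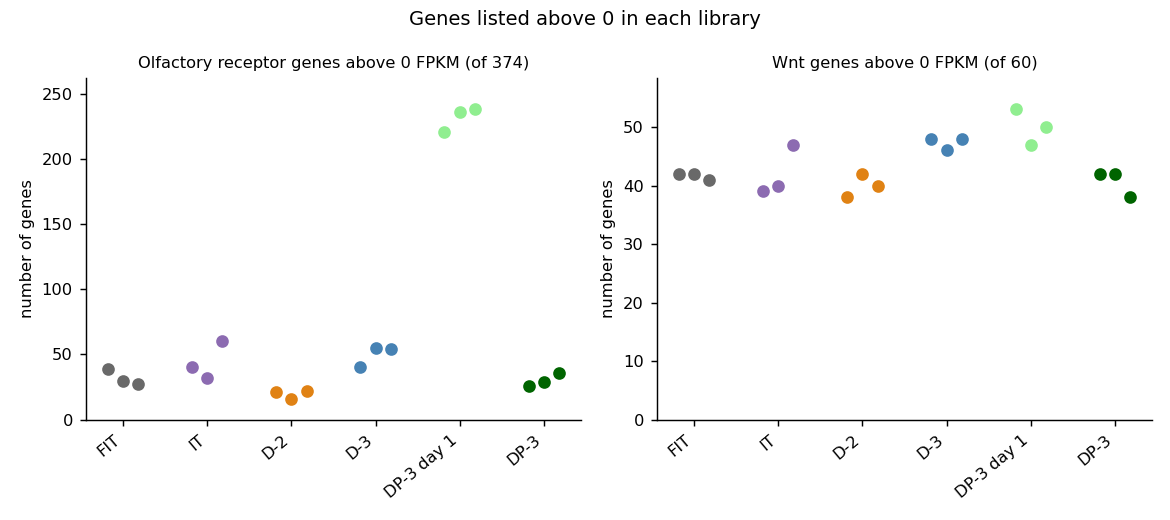
Number of olfactory receptor genes (left, of 374) and of Wnt genes (right, of 60) with an FPKM above 0 in each library; each dot is 1 library, 3 per group. The 3 libraries of DP-3 day 1 list 221 to 238 olfactory receptor genes, above the 16 to 60 of all other libraries.

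Of the 60 Wnt genes, 24 had a mean of at least 1 FPKM in at least 1 group, 15 reached a mean between 0.1 and 1, and 21 stayed under 0.1 in every group. The cells held a small set of ligand mRNAs and a broad set of receptors. Only 5 of 19 ligands (WNT5A, WNT5B, WNT7B, WNT9A and WNT10B) reached 1 FPKM, whereas 7 of 10 frizzled genes did (FZD1, FZD2, FZD4, FZD5, FZD6, FZD7 and FZD8). WLS, LRP6, LGR4, RNF43, ZNRF3, AXIN1, AXIN2, CTNNB1, LEF1, TCF7L1 and TCF7L2 were also at this level, and DKK1 was the only one of 10 secreted inhibitors that was. WNT2, WNT2B, WNT3, WNT7A, FZD3, FZD9, DKK2, DKK3, NOTUM, SFRP2, WIF1, RSPO2, RSPO3, RSPO4 and TCF7 made up the middle range. The 21 lowest were WNT1, WNT3A, WNT4, WNT6, WNT8A, WNT8B, WNT9B, WNT10A, WNT11, WNT16, FZD10, LRP5, DKK4, SFRP1, SFRP4, SFRP5, RSPO1, LGR5, LGR6, NKD1 and NKD2, and none of them exceeded 0.256 FPKM in a library.

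Differences were tested with edgeR's quasi-likelihood F-test on the estimated counts, and a gene was called when its Benjamini-Hochberg adjusted p over all genes tested was below 0.05 and its fold change at least 2. Genes at or above 0.1 FPKM in at least 3 libraries were tested, so a Wnt gene that only 1 group expresses entered through that group. In D-2 against FIT, 6 of 32 tested Wnt genes were called, a share of 18.8% beside 14.6% of all genes; 2 were higher in D-2 (3.83% of all genes) and 4 lower (10.8%). In D-3 against FIT, 10 of 34 were called, or 29.4% beside 6.45% of all genes; 4 were higher (4.29%) and 6 lower (2.17%). The D-3 count rests on single libraries: it fell to 1 when replicate 3 of D-3 was left out, was 5 when either replicate 1 of D-3 or replicate 2 of FIT was, and reached 13 when replicate 3 of FIT was. In DP-3 against FIT, 5 of 32 were called, or 15.6% beside 4.82%; 3 were higher (1.66%) and 2 lower (3.16%), and the count was 1 without DP-3 replicate 1 or 2 or FIT replicate 1 or 2 and 3 without DP-3 replicate 3. In IT against FIT, none of 33 was called by edgeR on the libraries of that pair, as for 0% of all genes. An unadjusted p below 0.05 was found for 9 Wnt genes, beside 2693 of all 21183 genes tested. DESeq2 called 4 (DKK1, FZD6, TCF7 and WNT10B), and edgeR in one fit of all 18 libraries called 4 (DKK1, FZD3, FZD6 and WNT10B). Limma called none. The share of all genes called in these alternatives is not given here, so the counts are not read as a result about Wnt genes. The 4 comparisons with FIT share the FIT libraries and are not independent of each other.

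DP-3 on day 14 against day 1 gave 6 called Wnt genes of 34 tested, or 17.6% beside 7.56% of all genes; 2 were higher on day 14 (1.81% of all genes) and 4 lower (5.76%), and the count was 3 without DP-3 day 1 replicate 2 and 2 without replicate 3. D-3 against D-2 gave 7 of 32, or 21.9% beside 18.5%; 3 were higher in D-3 (14.6%) and 4 lower (3.95%). Whether the Wnt genes as a set differed from other genes was not tested. The libraries of the groups did not overlap for 20 of 32 Wnt genes in D-2 against FIT beside 49.9% of all genes, for 19 of 34 in D-3 beside 32.4%, for 11 of 32 in DP-3 beside 34.1% and for 12 of 33 in IT beside 20.6%. They did not overlap for 21 of 34 between the days of DP-3 beside 45.2% and for 17 of 32 between D-3 and D-2 beside 53.2%. Overlap was judged on the deposited FPKM, without the scaling between libraries that the tests apply. Between the days of DP-3, FZD2 and WNT10B were counted as not overlapping with log2 changes of -0.01 ± 0.09 and 0.02 ± 0.14. A joint F-test of all 6 groups, which used the adjusted p alone, called 24 of 38 tested Wnt genes, or 63.2%, beside 37.3% of all genes. Among those 24, the highest mean FPKM lay in FIT for 10, in D-3 for 6, in DP-3 day 1 for 3, in D-2 for 2, in IT for 2 and in DP-3 for 1. The lowest mean FPKM lay in D-3 for 10. These ranks do not carry the scaling of the tests. FZD1 ranks highest in DP-3 day 1, while its log2 difference of DP-3 from day 1 was 0.05 ± 0.15. The 1 gene in DP-3 was FZD8, whose joint call (edgeR adjusted p = 0.0497) was lost in 17 of 25 alternatives.

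**Figure D2:**
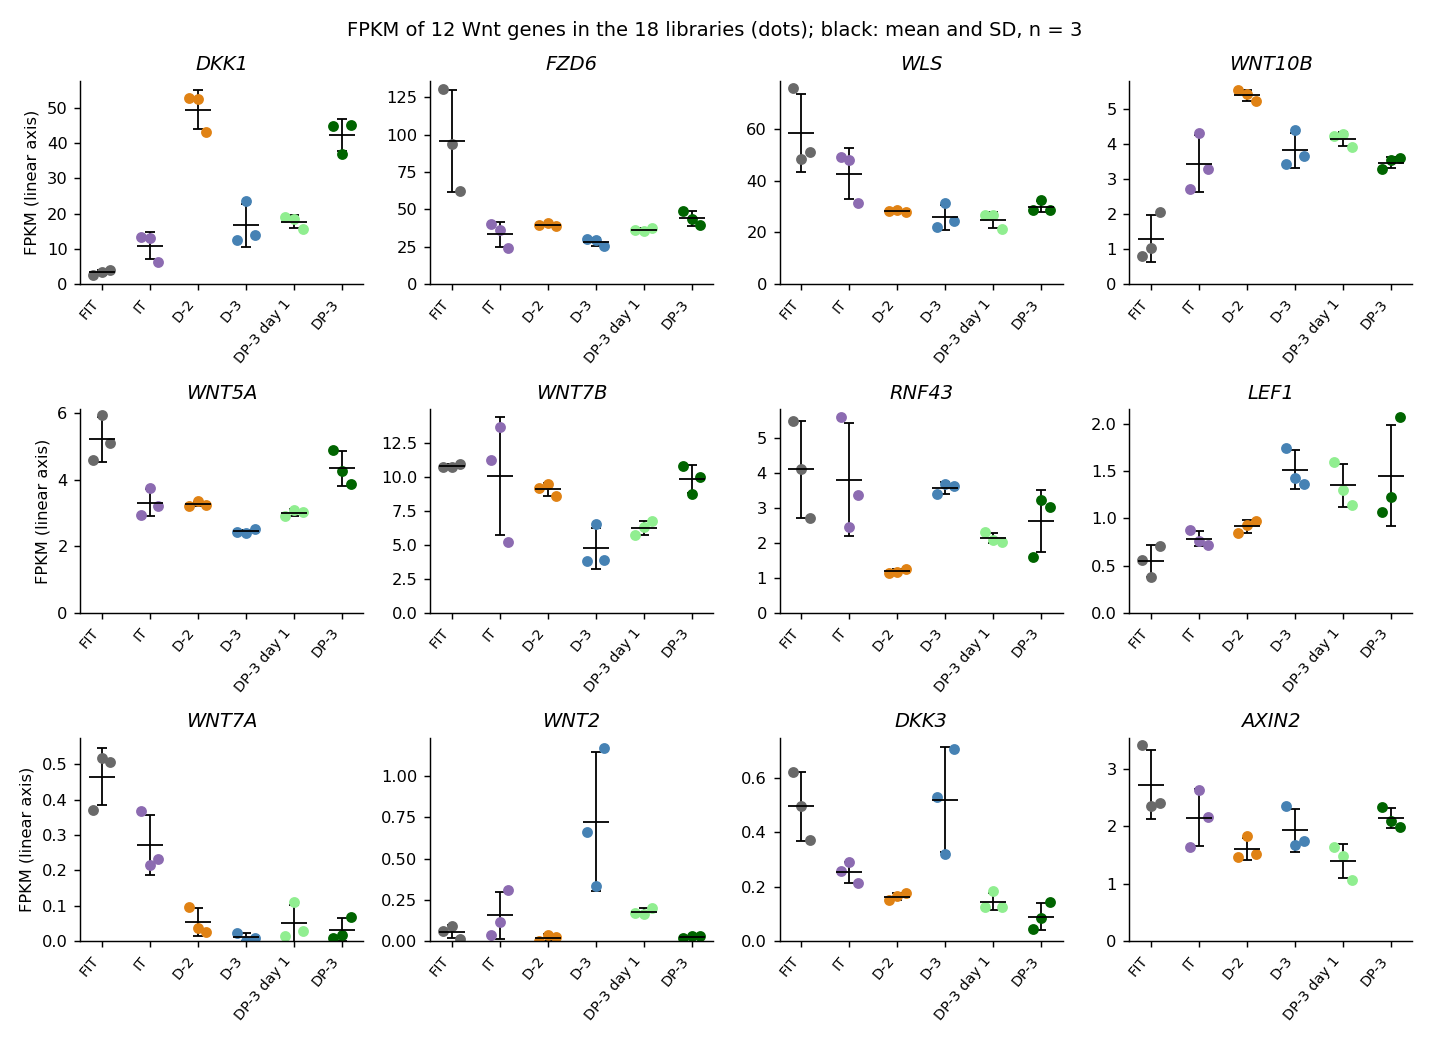
FPKM (linear axis) of 12 Wnt genes in each of the 18 libraries; dots are libraries, black bars are the group mean and SD (n = 3). DKK1 is lowest in FIT (2.65 to 4.14 FPKM) and highest in D-2 and DP-3 (36.9 to 53.0 FPKM), FZD6 is highest in FIT, and RNF43 is lowest in D-2.

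Among the ligands, WNT10B was lower in the fresh tumors than in every other group. WNT10B (chr12:48965340-48971735, minus strand), a canonical ligand known to favor bone formation, was at 0.817, 1.02 and 2.06 FPKM in FIT. It was at 5.54, 5.42 and 5.22 FPKM in D-2, at 3.28, 3.54 and 3.59 in DP-3, at 3.44, 4.39 and 3.65 in D-3, at 2.71, 4.31 and 3.30 in IT and at 4.22, 4.30 and 3.91 in DP-3 day 1. Every library outside FIT was above every FIT library. The log2 fold change from FIT was 2.22 ± 0.35 (SE) in D-2 (adjusted p = 0.00502), 1.51 ± 0.38 in D-3 (adjusted p = 0.0479) and 1.55 ± 0.37 in DP-3 (adjusted p = 0.0448), and it was called in these 3. In IT it was 1.42 ± 0.42 with an adjusted p of 0.251, and between the days of DP-3 the log2 difference was 0.02 ± 0.14. As fewer cells of a type and less RNA per cell cannot be told apart in bulk RNA, these values say nothing of which cells held the transcript. The call in D-2 held in all 14 alternative analyses, while the calls in D-3 and DP-3 were lost in 7 and 8 of 14, with adjusted p up to 0.146 and 0.12; each was lost without any 1 of the libraries of its own group or without FIT replicate 1 or 2, and the D-3 call also under median-of-ratios scaling.

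WNT9A was the most abundant ligand in the tumors. WNT9A (chr1:227918656-227947932, minus strand) stood at 15.0, 10.6 and 15.0 FPKM in FIT and at 19.4, 17.3 and 12.8 FPKM in IT. The D-2 libraries had 6.37, 6.75 and 6.62 FPKM, the D-3 libraries 6.94, 6.79 and 5.41, and the DP-3 day 1 libraries 8.55, 7.23 and 8.13. DP-3 spread widely, with 6.37, 18.1 and 3.47 FPKM. D-2, D-3 and DP-3 day 1 were below both tumor groups, and 1 DP-3 library was among the highest of all. The log2 change from FIT was -1.13 ± 0.18 in D-3 (edgeR adjusted p = 0.0124, called). In D-2 it was -0.88 ± 0.14 (adjusted p = 0.00491), under the 2-fold limit. The D-3 call was lost without D-3 replicate 3 (adjusted p = 0.0606).

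WNT5A and WNT7B, a mostly non-canonical and a canonical ligand, were both lowest in D-3. WNT5A fell from 5.21 ± 0.67 FPKM in FIT (SD, n = 3) to 2.44 ± 0.06 in D-3, a log2 change of -1.16 ± 0.18 (edgeR adjusted p = 0.0111). Its means were 3.27 in D-2, 3.30 in IT, 3.01 in DP-3 day 1 and 4.35 in DP-3. WNT7B fell from 10.8 ± 0.13 FPKM in FIT to 4.73 ± 1.5 in D-3, a log2 change of -1.25 ± 0.23 (adjusted p = 0.0194), and was 1.19 ± 0.22 lower on the log2 scale in D-3 than in D-2 (adjusted p = 0.00754). In D-2, DP-3 and IT the mean WNT7B level was 9.07, 9.82 and 10.04 FPKM. DP-3 day 1 was closer to D-3, with a mean of 6.26 and libraries at 5.74, 6.28 and 6.76 FPKM. D-3 replicate 2 (6.49) lay within that range, and IT replicate 3 (5.22) lay within the range of D-3. WNT7B was 0.92 ± 0.12 higher on the log2 scale in DP-3 on day 14 than on day 1 (edgeR adjusted p = 0.0039), under the 2-fold limit. The WNT5A call in D-3 was lost without D-3 replicate 3 (adjusted p up to 0.0564), and the WNT7B call against FIT without D-3 replicate 1 or 3 or FIT replicate 1 or 2 (adjusted p up to 0.0889). WNT5A-AS1, an antisense gene that overlaps WNT5A, was listed at 2.21 to 4.24 FPKM (group means), and it is not stated whether the counting used strand.

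WNT5B, a close relative of WNT5A, was highest on day 1 of the printed tissue and in D-2. Its mean was 3.29 ± 0.17 FPKM in DP-3 day 1 and 1.36 ± 0.26 in DP-3 on day 14, a log2 change of -1.01 ± 0.17 (edgeR adjusted p = 0.0077), just past the 2-fold limit. It was 2.74 ± 0.28 FPKM in D-2 and 1.22 ± 0.36 in D-3, a log2 difference of -1.41 ± 0.25 (adjusted p = 0.00679). FIT and IT had means of 1.61 and 1.23 FPKM. Without DP-3 day 1 replicate 1 or DP-3 replicate 3 the change between days was no longer called (adjusted p over the alternatives up to 0.0394). FBXL14, which overlaps WNT5B on the other strand, had group means of 3.94 to 6.76 FPKM.

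WNT7A and WNT2 were low ligands with opposite patterns. WNT7A (chr3:13816258-13880071, minus strand) was at 0.371, 0.518 and 0.507 FPKM in FIT and at 0.368, 0.215 and 0.232 in IT. It was at 0.0977, 0.0374 and 0.0256 FPKM in D-2, at 0.00952, 0.018 and 0.0691 in DP-3, at 0.0229, 0 and 0.00938 in D-3 and at 0.0137, 0.11 and 0.0279 in DP-3 day 1. All 6 libraries from tumors were above all 12 from cultured cells. The endothelial markers CDH5 (0.320 to 1.34 FPKM against 0.0228 to 0.149) and PECAM1 (2.93 to 5.01 against 0.792 to 1.80) split the libraries in the same way. TEK had means of 0.370 in FIT and 0.310 in IT against at most 0.101. The rest of the endothelial list did not follow. EMCN had means of 0.0758 in FIT and 0.0513 in IT against 0.0917 to 0.351 in the cultures. KDR, VWF and TIE1 had their highest means in DP-3 day 1 (0.037, 0.12 and 43.6). CLDN5 had means of 0.0766 in FIT and 0.0191 in IT, and 0.0484 in D-3. The part of these markers in the WNT7A result was not tested. The log2 change from FIT was -2.93 ± 0.57 in D-2 (edgeR adjusted p = 0.00982) and -3.66 ± 0.75 in DP-3 (adjusted p = 0.0313). In D-3 no library exceeded the detection limit of 12 estimated counts (3 read pairs), and there WNT7A lay at least 13.1-fold below FIT (adjusted p = 0.0161). The D-2 call held without each library, whereas the D-3 call was lost without D-3 replicate 3 or FIT replicate 2 (adjusted p up to 0.08) and the DP-3 call without DP-3 replicate 1 or 2 or FIT replicate 1 or 2 (up to 0.0966).

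WNT2 (chr7:117275451-117323099, minus strand), a ligand that works mostly through beta-catenin, was at 0.662, 0.334 and 1.17 FPKM in D-3. It was at 0, 0.0388 and 0.0261 FPKM in D-2, at 0.0194, 0.028 and 0.03 in DP-3, at 0.0372, 0.117 and 0.312 in IT, at 0.064, 0.0913 and 0.0148 in FIT and at 0.17, 0.166 and 0.201 in DP-3 day 1. The D-3 libraries were above all others, though D-3 replicate 2 was close to IT replicate 3. The log2 difference of D-3 was 3.48 ± 0.72 from FIT (edgeR adjusted p = 0.0265) and 4.72 ± 0.98 from D-2 (adjusted p = 0.011). The call against FIT was lost without D-3 replicate 1 or 3 or FIT replicate 1 or 2 (adjusted p up to 0.107), and the call against D-2 held without each library. In DP-3 no library exceeded the detection limit on day 14, and WNT2 was at least 3.68-fold lower there than on day 1 (adjusted p = 0.0116), beside the 221 to 238 olfactory receptor genes listed on day 1 and 26 to 36 on day 14; their part in the result was not tested. That call was lost without DP-3 day 1 replicate 3 (adjusted p up to 0.0796).

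WNT2B was lower on day 14 of DP-3 (mean 0.0617 FPKM) than on day 1 (0.171 FPKM), with a log2 change of -1.20 ± 0.30 (edgeR adjusted p = 0.03), a call lost without DP-3 replicate 1 or any day 1 library (adjusted p up to 0.177). The same shift in listed silent genes lies beside it. ST7L, which overlaps WNT2B on the other strand, had group means of 1.07 to 1.48 FPKM. The joint test called WNT2B (edgeR adjusted p = 0.0351), a call lost in 12 of 24 alternatives. WNT3, a canonical ligand, had group means of 0.553 to 0.952 FPKM and was called in no comparison and not in the joint test (adjusted p = 0.577). The summed level of all 19 ligands was 33.8 ± 2.2 FPKM in FIT, 35.8 ± 7.9 in IT, 29.1 ± 7.2 in DP-3, 28.0 ± 1.0 in D-2, 26.4 ± 0.72 in DP-3 day 1 and 20.3 ± 1.8 in D-3 (SD, n = 3). The sum was therefore lowest in D-3, and each D-3 mean of WNT5A, WNT5B, WNT7B and WNT9A was the lowest of the 6 groups.

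WLS, the carrier that Wnt ligands need for secretion, was highest in the tumors. WLS (chr1:68098473-68232545, minus strand) was at 75.7, 48.4 and 51.1 FPKM in FIT and at 49.0, 47.9 and 31.2 in IT. It was at 28.4, 28.8 and 27.7 FPKM in D-2, at 28.7, 32.3 and 28.6 in DP-3, at 21.9, 31.2 and 24.3 in D-3 and at 26.6, 26.6 and 21.2 in DP-3 day 1. All FIT libraries were above all cultured cells, and IT overlapped both FIT and the cultures. WLS fell in D-3 by 1.23 ± 0.22 on the log2 scale (edgeR adjusted p = 0.0164). Its log2 change was -0.89 ± 0.16 for D-2 (adjusted p = 0.00806) and -0.83 ± 0.18 for DP-3 (adjusted p = 0.0335), where the fold change was under 2. The D-3 call was lost without D-3 replicate 1 or 3 (adjusted p up to 0.0822).

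FZD6 was the most abundant frizzled receptor in every group, and it stood highest in the fresh tumors (FIT) but not in IT. Its product is known mainly for planar cell polarity. It was at 130, 93.7 and 62.5 FPKM in FIT, at 40.03, 35.9 and 24.0 in IT, at 39.9, 40.7 and 38.7 in D-2, at 49.2, 43.9 and 39.3 in DP-3, at 30.0, 29.3 and 25.2 in D-3 and at 35.9, 35.5 and 37.6 in DP-3 day 1. The lowest FIT library was above the highest of all other libraries, although FIT itself spread widely. The log2 change from FIT was -1.11 ± 0.24 in D-2 (edgeR adjusted p = 0.014, called) and -1.82 ± 0.26 in D-3 (adjusted p = 0.0088, called). In DP-3 it was -0.99 ± 0.25 (adjusted p = 0.0487), a fold change just under 2. In IT it was -1.52 ± 0.30 with an adjusted p of 0.179. The D-2 call was lost without FIT replicate 1 or without D-2 replicate 1 or 3 (adjusted p up to 0.0526), and the D-3 call without D-3 replicate 3 (up to 0.0523). A pair of antisense genes that overlap FZD6 had their highest means in FIT too: BAALC-AS1 had a mean of 3.88 FPKM there and 0.769 to 1.58 elsewhere, and AC025370 4.56 and 0.334 to 1.15. The summed fibroblast list and KRT5 (0.642 to 2.04 FPKM in FIT, at most 0.1001 elsewhere) were highest in FIT as well. The rest of the keratinocyte list was mixed. KRT14 and, narrowly, KRT10 (25.0 against 24.7 in D-3) had their highest means in FIT, TP63 in IT, and KRT1 and DSG3 were at 0 in FIT. Of the fibroblast list, LUM had its lowest mean in FIT (0.302), and DCN was higher in DP-3 day 1 (0.0514 against 0.0244). The part of these markers in the FZD6 result was not tested.

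FZD8 was second to FZD6 in every group by mean, and the balance between the pair differed among groups. The FZD6 level was 4.72, 4.67 and 3.48 times the FZD8 level in the FIT libraries. The ratio was 1.39, 1.31 and 1.39 in D-2, 1.13, 1.07 and 1.36 in DP-3, 1.07, 1.05 and 1.18 in DP-3 day 1, 1.12, 1.61 and 2.53 in IT and 2.97, 1.17 and 3.62 in D-3. FIT therefore overlapped D-3 in this ratio and no other group. FZD8 itself had means of 37.8 ± 7.8 FPKM in DP-3, 33.2 ± 1.1 in DP-3 day 1, 29.2 ± 1.7 in D-2, 22.5 ± 13 in IT, 21.9 ± 5.1 in FIT and 14.02 ± 9.6 in D-3. It was 0.91 ± 0.20 higher on the log2 scale in DP-3 than in FIT (edgeR adjusted p = 0.0356) and 0.57 ± 0.16 higher in D-2 (adjusted p = 0.0318), both under the 2-fold limit. In D-3 it was at 10.1, 25.0 and 6.96 FPKM, so that replicate 2 stood apart from replicates 1 and 3.

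**Figure D3:**
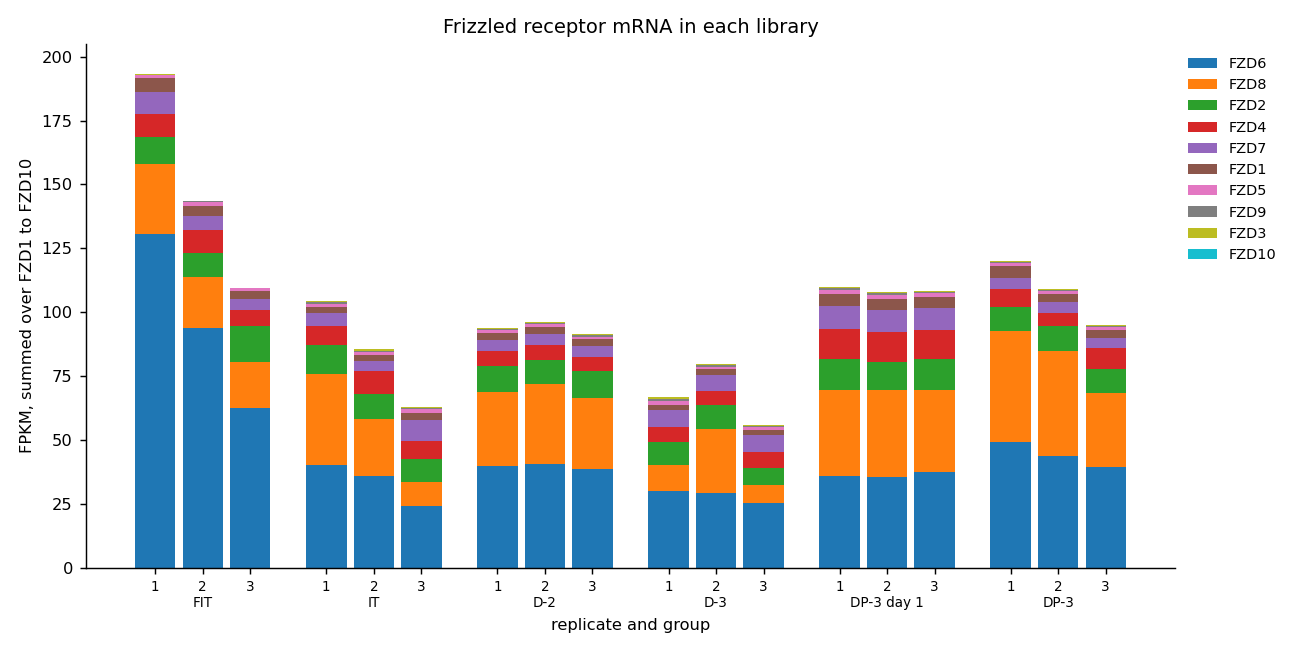
FPKM of the 10 frizzled genes stacked in each library (linear axis from 0), 3 libraries per group. FZD6, the lowest segment, makes up 63.3% of the sum on average in FIT and 33.4% to 42.4% in the other groups.

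The other frizzled genes with at least 1 FPKM differed less in their group means. The sum over all 10 was 149 ± 42 FPKM in FIT, 109 ± 0.99 in DP-3 day 1, 108 ± 13 in DP-3, 93.8 ± 2.4 in D-2, 84.3 ± 21 in IT and 67.4 ± 12 in D-3. FZD2 had group means of 8.47 to 11.7 FPKM and FZD5 of 0.97 to 1.64, and neither was called in any test. FZD4, a receptor of the vascular ligand norrin, was at 11.8, 11.9 and 11.6 FPKM in DP-3 day 1, above every other library. Its means elsewhere were 5.75 to 7.98 FPKM, and the joint test called it (edgeR adjusted p = 0.0118). With the scaling of the tests, its log2 difference of DP-3 from day 1 was -0.52 ± 0.20 (edgeR adjusted p = 0.114), which was not called. FZD4 shares its locus with PRSS23 on the other strand, which had group means of 11.5 to 28.5 FPKM. FZD7 was 0.84 ± 0.10 lower on the log2 scale in DP-3 than on day 1 (adjusted p = 0.00274), under the 2-fold limit. FZD1 was lowest in D-3 (2.05 FPKM) and had a log2 change of -1.06 ± 0.27 from FIT with an adjusted p of 0.0507. The joint test called FZD1 (edgeR adjusted p = 0.00167), a call kept in all 25 alternatives. FZD3 and FZD9 were lowest in FIT, with means of 0.179 and 0.156 FPKM, and were called in no pairwise comparison. The joint test called FZD3 (edgeR adjusted p = 0.0141) and not FZD9.

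The coreceptor mRNA was almost all LRP6. LRP6 was at 5.17, 5.25 and 5.22 FPKM in FIT, at 4.43, 4.80 and 4.76 in IT, at 4.35, 4.38 and 4.12 in D-2, at 4.75, 5.29 and 4.81 in DP-3, at 5.17, 4.13 and 3.77 in D-3 and at 4.16, 4.19 and 4.06 in DP-3 day 1. These levels lay close together, and the log2 changes from FIT lay between -0.32 ± 0.17 (D-3) and 0.05 ± 0.12 (DP-3). The joint test called LRP6 (edgeR adjusted p = 0.0113), with a ratio of highest to lowest group mean of 1.26. That call was lost in 5 of 25 alternatives. Between the days of DP-3, LRP6 was 0.53 ± 0.08 higher on the log2 scale on day 14 (edgeR adjusted p = 0.00684), a fold change of 1.44. LRP5, the coreceptor known from bone mass disorders, did not exceed 0.0846 FPKM in any library. It was not tested, as it did not reach 0.1 FPKM in 3 libraries.

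DKK1, the secreted inhibitor of LRP5 and LRP6, had the largest ratio of group means (14.7, D-2 over FIT) among the 24 Wnt genes with at least 1 FPKM. DKK1 (chr10:52314281-52317657, plus strand) was at 2.65, 3.34 and 4.14 FPKM in FIT. It was at 53.0, 52.4 and 43.2 FPKM in D-2, at 44.8, 36.9 and 45.3 in DP-3, at 12.5, 23.6 and 13.9 in D-3, at 13.3, 13.0 and 6.40 in IT and at 18.9, 18.5 and 15.6 in DP-3 day 1. Every other library was above every FIT library, and D-2 and DP-3 on day 14 were above all the rest. D-3, IT and DP-3 day 1 formed a middle range; D-3 overlapped IT and DP-3 day 1, which did not overlap each other.

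Against FIT, DKK1 rose by 4.03 ± 0.20 on the log2 scale in D-2 (edgeR adjusted p = 0.000481), by 3.78 ± 0.22 in DP-3 (adjusted p = 0.00102) and by 2.25 ± 0.30 in D-3 (adjusted p = 0.00657). These are 16.3-fold, 13.7-fold and 4.74-fold. In IT the log2 change was 1.69 ± 0.33 with an adjusted p of 0.18, and IT did not overlap FIT. DKK1 was 1.53 ± 0.14 higher on day 14 of DP-3 than on day 1 (adjusted p = 0.00182) and 1.82 ± 0.25 lower in D-3 than in D-2 (adjusted p = 0.0032). All 5 of these calls held in each of the 14 alternative analyses. PRKG1-AS1, which overlaps DKK1 on the other strand, had group means under 0.167 FPKM.

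The promoter windows of the Wnt genes were searched for the TCF/LEF core motif. The letters CTTTGAA and CTTTGAT were searched on both strands in RefSeq windows from 250 bases before to 50 bases after the gene start (build GRCh38.p14), which were at hand for 41 of the 60 genes in 51 windows. A match to these spellings was found in 1 of the 51 windows, that of DKK1, and in 6.86% of all 35116 windows. With the other core spellings, CTTTGTA and CTTTGTT, added after the data were seen, 4 of the 51 windows held a match (DKK1, TCF7, TCF7L2 and WNT3), beside 13.8% of all windows. The 250 bases before the DKK1 start, at chr10:52314031-52314280 on the plus strand, are shown because DKK1 had the largest ratio of group means among the 24 genes with at least 1 FPKM. The CTTTGAA match is in capitals and spans bases 95 to 89 before the start, a CTTTGTT left in lower case spans bases 76 to 70, and 62.8% of the bases are G or C.
DKK1 upstream: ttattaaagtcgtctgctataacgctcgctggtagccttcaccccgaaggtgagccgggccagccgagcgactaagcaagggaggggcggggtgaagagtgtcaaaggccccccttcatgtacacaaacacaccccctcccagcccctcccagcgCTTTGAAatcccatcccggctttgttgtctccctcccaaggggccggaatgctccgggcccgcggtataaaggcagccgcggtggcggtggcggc
The matches are a description of these letters and not binding sites shown by these data.

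DKK3, a divergent member of the DKK family, was a low transcript with another order of groups. It was at 0.622, 0.495 and 0.370 FPKM in FIT and at 0.529, 0.321 and 0.708 in D-3. It was at 0.256, 0.290 and 0.214 FPKM in IT, at 0.150, 0.164 and 0.175 in D-2, at 0.0434, 0.0839 and 0.143 in DP-3 and at 0.127, 0.183 and 0.126 in DP-3 day 1. FIT and D-3 overlapped each other and were above all other libraries. DKK3 was 1.45 ± 0.27 lower on the log2 scale in D-2 than in FIT (edgeR adjusted p = 0.00839), 2.30 ± 0.48 lower in DP-3 than in FIT (adjusted p = 0.033) and 1.41 ± 0.32 higher in D-3 than in D-2 (adjusted p = 0.0144). The DP-3 call was lost without DP-3 replicate 1 or 2 or FIT replicate 1 or 2 (adjusted p up to 0.105), and the call between D-3 and D-2 without D-2 replicate 1 or 2 (up to 0.0539). USP47, which overlaps DKK3 on the other strand, had group means of 5.16 to 6.46 FPKM, so that reads from it could not be told apart if strand was not used.

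The remaining inhibitors were low, with no group mean of 1 FPKM or more. SFRP2, which binds Wnt ligands, was at 0.0484, 0.188 and 2.13 FPKM in FIT, and its mean there rests on FIT replicate 3. That library also had the highest summed skeletal muscle markers (5.23 FPKM). Of the fibroblast list, COL3A1 (0, 0.0516 and 3.94 FPKM in FIT) and DPT (0.322, 0.729 and 4.26) were highest there too. Within FIT, LUM and DCN were also highest there, and PDGFRA (24.3, 28.3 and 12.6 FPKM) and FBLN1 were lowest there. The part of these markers in the SFRP2 value was not tested. SFRP2 missed the joint test (adjusted p = 0.0582). DKK2, NOTUM and WIF1 had group means of at most 0.25, 0.177 and 0.108 FPKM. DKK2 was not called in any test. NOTUM entered the joint test alone and missed it (edgeR adjusted p = 0.063). WIF1 was not tested, as it did not reach 0.1 FPKM in 3 libraries.

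**Figure D4:**
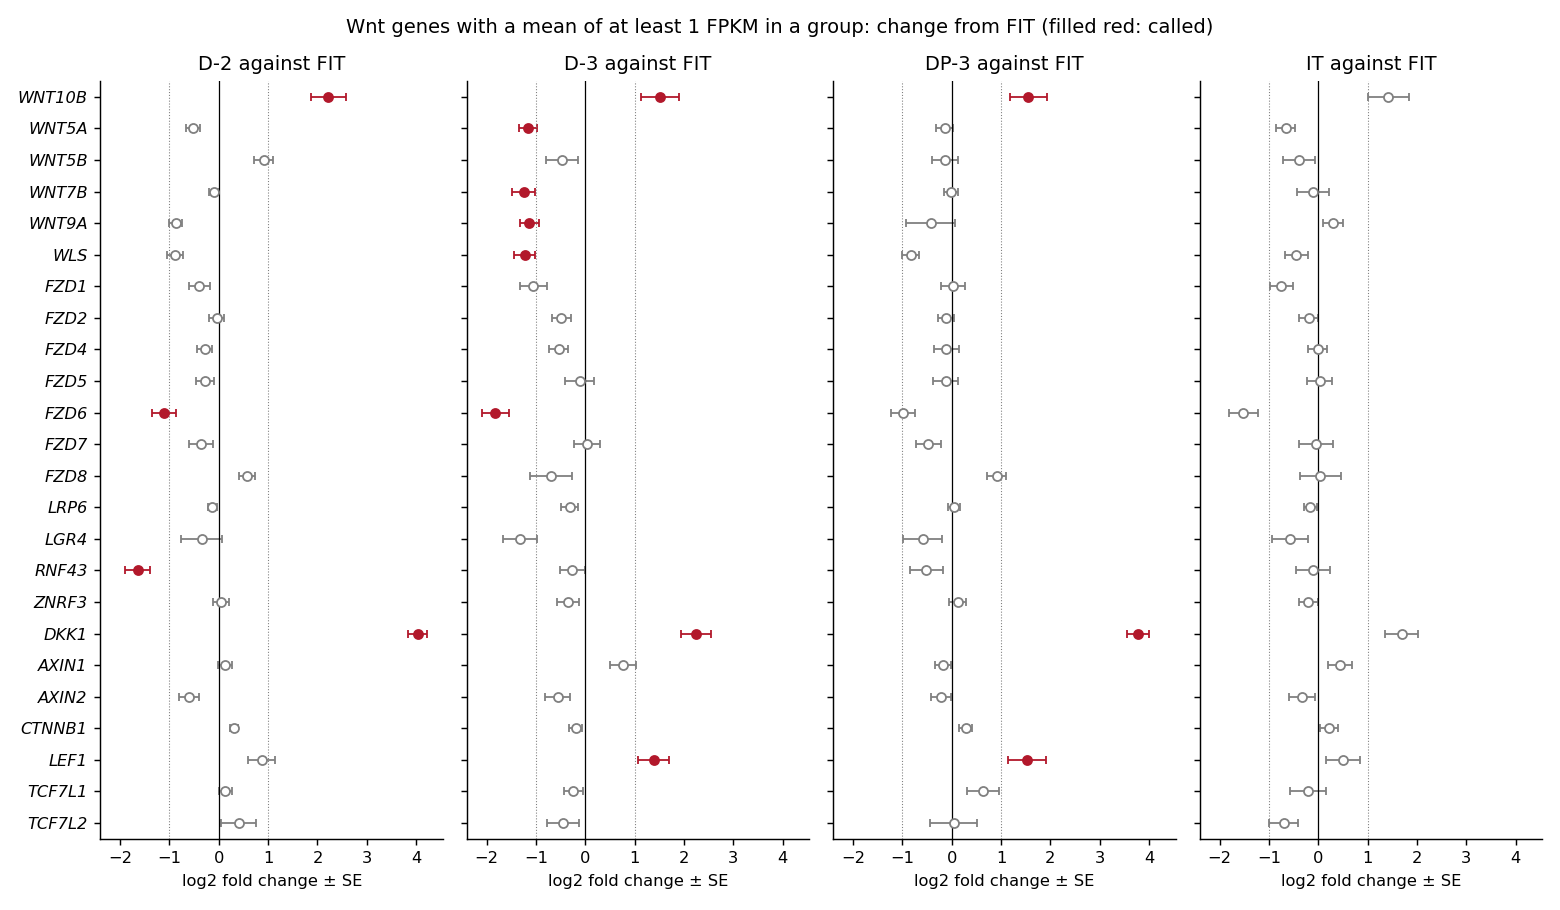
Log2 fold change (dots) with SE (bars) of the 24 Wnt genes with a mean of at least 1 FPKM in a group, in 4 panels, each with FIT as the reference; filled red dots were called, and dotted lines mark a 2-fold change. DKK1 lies farthest to the right in each panel, at 4.03 (D-2), 3.78 (DP-3), 2.25 (D-3) and 1.69 (IT), and no dot is filled for IT.

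LGR4 was the only LGR receptor with a clear level, and its replicates spread in every group. It was at 6.03, 15.3 and 13.3 FPKM in FIT, at 6.03, 8.29 and 9.03 in IT, at 9.93, 9.95 and 4.69 in D-2, at 8.66, 8.81 and 4.05 in DP-3, at 5.56, 3.73 and 5.23 in D-3 and at 12.9, 4.53 and 5.15 in DP-3 day 1. The groups overlapped widely, apart from D-3 against FIT and against IT. LGR4 was 1.01 ± 0.30 lower on the log2 scale in D-3 than in D-2 (edgeR adjusted p = 0.0381), although these groups overlapped, and the call was lost in 10 of 14 alternatives (adjusted p up to 0.172), among them without D-2 replicate 1 or 2 or any D-3 library. Against FIT the log2 change in D-3 was -1.32 ± 0.35 with an adjusted p of 0.0536.

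The R-spondins, which strengthen Wnt signals through LGR receptors, were low. RSPO3 (chr6:127118671-127199481, plus strand) was at 0.395, 0.0366 and 0.149 FPKM in D-3, at 0.1003, 0.164 and 0.232 in DP-3 day 1 and at 0, 0.00943 and 0.182 in IT. It was at 0.00876, 0.0247 and 0 FPKM in DP-3, at 0, 0.00854 and 0.00801 in D-2 and at 0 in all FIT libraries. D-3 and DP-3 day 1 were above FIT, D-2 and DP-3 in every library, and IT rests on replicate 3. In DP-3 on day 14 no library exceeded the detection limit, and RSPO3 was at least 3.87-fold lower than on day 1 (edgeR adjusted p = 0.0401), again beside the higher count of silent genes listed on day 1. This call was lost without any day 1 library or without DP-3 replicate 1 (adjusted p up to 0.131). RSPO2 and RSPO4 had group means of at most 0.244 and 0.108 FPKM and were not called.

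RNF43, the ubiquitin ligase that clears frizzled receptors, was lowest in D-2. RNF43 (chr17:58353676-58417595, minus strand) was at 1.12, 1.16 and 1.26 FPKM in D-2. It was at 5.47, 4.10 and 2.70 FPKM in FIT, at 5.58, 2.46 and 3.35 in IT, at 1.60, 3.22 and 3.01 in DP-3, at 3.38, 3.68 and 3.63 in D-3 and at 2.30, 2.07 and 2.01 in DP-3 day 1. Every D-2 library was below every other library. RNF43 was 1.64 ± 0.25 lower on the log2 scale in D-2 than in FIT (edgeR adjusted p = 0.00484) and 1.34 ± 0.13 higher in D-3 than in D-2 (adjusted p = 0.00158), and both calls held in all 14 alternatives. Its relative ZNRF3 had group means of 3.19 to 3.91 FPKM and missed the joint test (adjusted p = 0.0699).

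The cytoplasmic scaffold genes AXIN1 and AXIN2 were both called in the joint test (edgeR adjusted p = 0.0296 and 0.0162), with ratios of highest to lowest group mean of 2.18 and 1.95, and in no pairwise comparison. AXIN1, which holds the destruction complex of beta-catenin together, was at 6.14, 4.57 and 4.28 FPKM in FIT, at 7.38, 4.60 and 8.21 in IT, at 4.91, 4.98 and 4.70 in D-2, at 4.41, 4.13 and 3.64 in DP-3, at 12.4, 6.23 and 7.95 in D-3 and at 6.63, 6.61 and 7.01 in DP-3 day 1. Its mean was highest in D-3, which was above D-2 and FIT in every library, while D-3 replicate 2 was below all DP-3 day 1 libraries. The log2 difference of D-3 was 0.77 ± 0.27 from FIT (edgeR adjusted p = 0.119) and 0.61 ± 0.24 from D-2 (adjusted p = 0.0825). The joint call of AXIN1 was lost without D-3 replicate 1 or DP-3 replicate 2 or 3 (adjusted p up to 0.0775). The log2 difference of DP-3 from day 1 was -0.47 ± 0.09 (edgeR adjusted p = 0.013). AXIN2, a feedback gene that canonical Wnt signals are known to induce in many tissues, had means of 2.73 ± 0.61 FPKM in FIT, 2.15 ± 0.50 in IT, 2.14 ± 0.17 in DP-3, 1.93 ± 0.38 in D-3, 1.61 ± 0.19 in D-2 and 1.40 ± 0.30 in DP-3 day 1. Its log2 change from FIT was -0.60 ± 0.20 in D-2 (adjusted p = 0.0547), -0.22 ± 0.20 in DP-3 and -0.55 ± 0.25 in D-3. In DP-3 it was 0.87 ± 0.20 higher on day 14 than on day 1 (adjusted p = 0.0208), a fold change of 1.83.

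CTNNB1, which encodes beta-catenin, was nearly level, with a ratio of highest to lowest group mean of 1.27. CTNNB1 was still called in the joint test (edgeR adjusted p = 0.0108), a call lost in both limma fits. It was at 27.8, 27.2 and 26.8 FPKM in FIT, at 27.0, 28.8 and 38.7 in IT, at 30.4, 30.3 and 30.2 in D-2, at 30.0, 33.9 and 27.3 in DP-3, at 23.8, 23.7 and 26.7 in D-3 and at 26.9, 27.1 and 29.7 in DP-3 day 1. The only large departure was IT replicate 3. D-3 was 0.54 ± 0.10 lower on the log2 scale than D-2 (edgeR adjusted p = 0.00639), a 1.46-fold difference, and D-2 was 0.31 ± 0.08 higher than FIT (adjusted p = 0.0304). Both were under the 2-fold limit. The median log2 difference over all genes in D-3 against D-2 was 0.11.

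LEF1, a nuclear partner of beta-catenin, was lowest in the tumors. Its mean was 0.550 ± 0.17 FPKM in FIT, 0.786 ± 0.083 in IT, 0.916 ± 0.068 in D-2, 1.35 ± 0.23 in DP-3 day 1, 1.46 ± 0.54 in DP-3 and 1.52 ± 0.20 in D-3. Every library outside FIT was above every FIT library. LEF1 rose by 1.39 ± 0.32 on the log2 scale in D-3 (edgeR adjusted p = 0.0365) and by 1.52 ± 0.38 in DP-3 (adjusted p = 0.0482). In D-2 the log2 change was 0.87 ± 0.27 (adjusted p = 0.0482), under 2-fold. Both calls were lost without any library of their own group or without FIT replicate 1 or 2, with adjusted p up to 0.13 in D-3 and 0.136 in DP-3.

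TCF7, a partner of the same family, was at 0.703, 0.533 and 0.110 FPKM in FIT, so that FIT replicate 3 lay with the cultures. It was at 0.262, 0.348 and 0.271 FPKM in DP-3 and at 0.204, 0.126 and 0.146 on day 1, a log2 rise of 1.15 ± 0.28 (edgeR adjusted p = 0.0268), lost without DP-3 replicate 2 or DP-3 day 1 replicate 2 or 3 (adjusted p up to 0.169). SKP1, on the other strand of the TCF7 locus, had group means of 7.27 to 8.83 FPKM. TCF7L1 and TCF7L2 had group means of 2.74 to 4.64 and 1.26 to 2.47 FPKM and were called in no pairwise comparison.

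**Figure D5:**
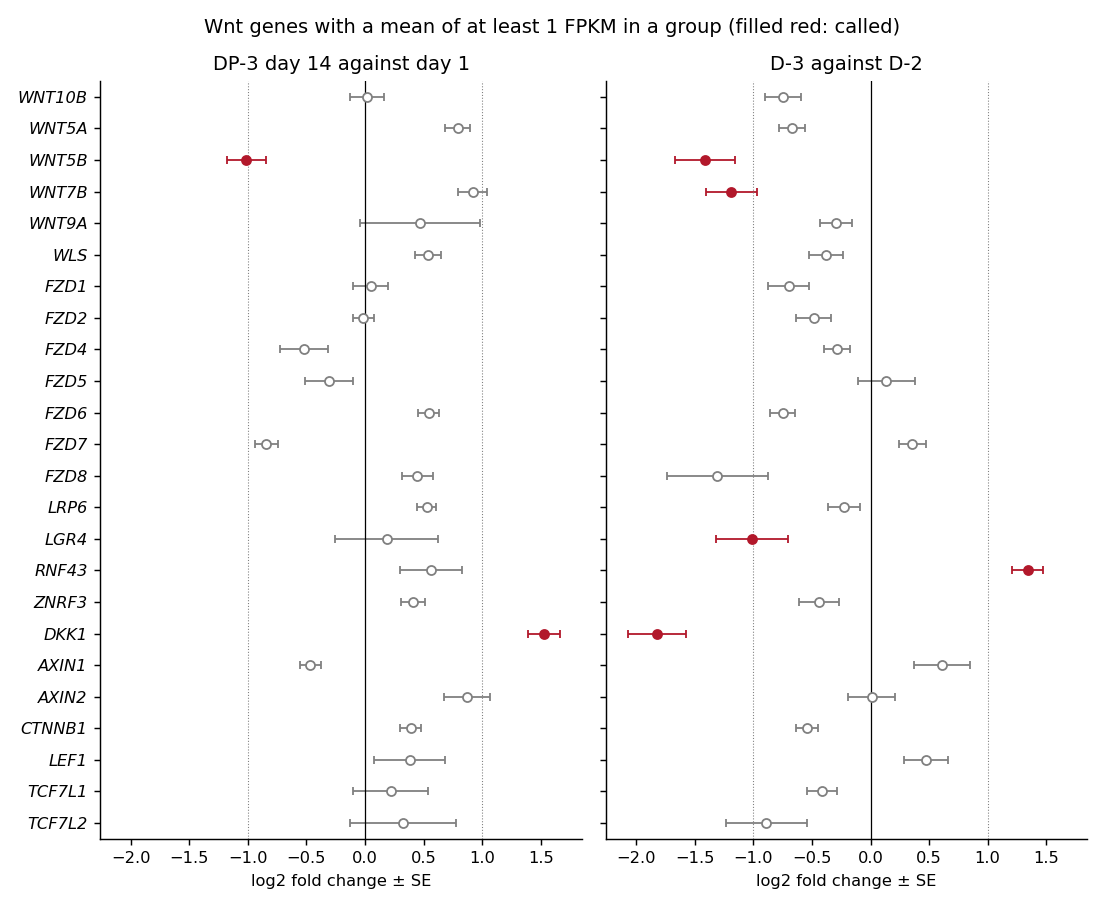
Log2 fold change (dots) with SE (bars) of the same 24 Wnt genes for DP-3 on day 14 against day 1 and for D-3 against D-2; filled red dots were called, and dotted lines mark a 2-fold change. DKK1 lies at 1.53 in the left panel and at -1.82 in the right panel, and RNF43 at 1.34 in the right panel.

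Other genes of the pathway were taken from lists of known components. The joint test of the 6 groups called 14 of 26 further cytoplasmic and nuclear components, 7 of 14 other secreted and membrane genes and 9 of 15 genes of the polarity and calcium branch that were tested, beside 37.3% of all genes. Fewer passed the pairwise tests, which also ask for a 2-fold change. Of the 26 cytoplasmic and nuclear components, 1 was called over the 6 comparisons: CTNNBIP1, which blocks the binding of beta-catenin to TCF proteins and was lower in D-3 than in FIT (2.17% of all genes were called lower there). The median log2 change from FIT over the list was between -0.02 and 0.05 in the 4 comparisons, beside -0.09 to 0.02 over all genes. Of 20 other secreted and membrane genes, 10 to 12 were tested; none was called in D-2, DP-3 or IT, and ROR1, a receptor for WNT5A, was lower in D-3. In D-3 against D-2, DKKL1 and PTK7 were higher (14.6% of all genes) and ROR1 lower (3.95%).

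Of 18 genes of the polarity and calcium branch, 15 were tested. In D-2 against FIT, 2 were called higher (3.83% of all genes) and 1 lower (10.8%). In D-3, 1 was higher (4.29%) and 1 lower (2.17%), and in DP-3, 1 was lower (3.16%). The lower one each time was NFATC2, a calcium-regulated transcription factor, with a mean of 2.78 ± 1.6 FPKM in FIT and means of 0.971 in DP-3 day 1, 0.401 in DP-3, 0.307 in D-2 and IT, and 0.269 in D-3. Its log2 change from FIT was -3.002 ± 0.48 in D-2 (edgeR adjusted p = 0.00533), -3.39 ± 0.49 in D-3 (adjusted p = 0.00858) and -2.62 ± 0.53 in DP-3 (adjusted p = 0.0303). In IT it was -3.14 ± 0.51 with an adjusted p of 0.147. Between the days of DP-3 this list gave 1 lower gene (5.76% of all genes), and in D-3 against D-2 it gave 1 higher (14.6%) and 2 lower (3.95%).

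Genes known as Wnt targets in some tissues moved in both directions. Of 26 found, 24 entered the joint test and 18 were called, beside 37.3% of all genes. In D-2 against FIT, 22 were tested, with 4 higher (3.83% of all genes) and 4 lower (10.8%). In D-3, 24 were tested, with 2 higher (4.29%) and 4 lower (2.17%), and in DP-3, 21 were tested, with 2 higher (1.66%) and 3 lower (3.16%). In IT, edgeR called none of 22, as for 0% of all genes. TNFRSF19, a receptor of the TNF family, fell in D-2 (log2 change -1.16 ± 0.15), D-3 (-2.41 ± 0.19) and DP-3 (-1.12 ± 0.20), from 12.6 ± 2.9 FPKM in FIT. TNFRSF11B, which encodes osteoprotegerin, the decoy receptor that restrains osteoclasts, fell by 2.57 ± 0.55, 4.82 ± 0.65 and 2.64 ± 0.64 on the log2 scale in the same groups, from 5.93 ± 3.6 FPKM in FIT. Between the days of DP-3, 4 of 22 targets were higher on day 14 (1.81% of all genes) and none lower (5.76%), with a median log2 change of 0.42 beside -0.06 over all genes. In D-3 against D-2, 3 of 24 were higher (14.6% of all genes) and 8 lower (3.95%), with a median of -0.53 beside 0.11. The list mixes genes that other signals also control, and no test set it against other genes.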

How the data were processed

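The authors sequenced poly(A) RNA in pairs of reads from dUTP-marked libraries; per the labels' processing notes they used cutadapt 1.9, HISAT2 2.0.4 and StringTie 1.3.4d. The deposited table gives FPKM and estimated counts for 50119 genes in 18 libraries, with 0 value columns left unused. How the authors made the estimated counts, and their genome build, are not given in the sources used here; about 4 counts stand for 1 read pair. All 60 Wnt genes overlap the gene of the same ID, chromosome and strand in GENCODE 29 (GRCh38), so coordinates are read as GRCh38. Whether the authors' counting used strand is not stated, and 27 Wnt genes overlap a gene on the other strand.

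Libraries were grouped by the titles of the sample records. The deposited estimated counts were rounded and fitted with edgeR 4.0.16 in R 4.3.3 (TMM, estimateDisp, glmQLFit, glmQLFTest), each comparison on its own 6 libraries and the joint test on all 18. A gene was tested when 3 or more libraries reached 0.1 FPKM; called means a Benjamini-Hochberg adjusted p below 0.05 over all of them and, for pairs, a fold change of at least 2. The SE is the size of the log2 fold change over the root of the F statistic. A group with at most 12 estimated counts in every library was set at that limit, and the bound covers counting error only. The script was tested on simulated data. No replicate pair was within sampling noise (chi-square per gene at least 11.5). Same-numbered libraries did not deviate together (correlations -0.038 to 0.064 over 18 pairs), so numbers were not used as pairs.

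Genes with a mean of at least 1 FPKM in a group, or called, are named with values; every library is given for those called in the joint test with a ratio of group means of at least 4 and for the most abundant gene of each role. NFATC2, TNFRSF19 and TNFRSF11B were called in at least 3 comparisons with FIT. A marker gene withheld for evaluation is not reported here. The Wnt genes, the lists and the tests were chosen with earlier results of these data known. Alternatives used other scaling, filters, DESeq2 1.42.0, limma 3.58.1 on log2(FPKM + 0.1) or log2(FPKM + 1), one fit of all libraries, the replicate block and leaving out each library.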

Additional observations from a re-analysis of the deposited data

How the results depend on the processing

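Over 58 results of 1 Wnt gene in 1 test there were 1057 values under the alternatives, of which 892 kept their call and direction, 165 lost the call and 0 reversed. Among the 6 groups, 24 Wnt genes were called and 18 to 30 under the alternatives, with 20 to 25 when 1 library was left out. In D-2 against FIT, 6 were called and 5 to 9 when 1 library was left out. In D-3 against FIT, 10 were called, 5 by limma on log2(FPKM + 1), and 1 to 13 when 1 library was left out, with 1 without D-3 replicate 3. In DP-3 against FIT, 5 were called, 3 by limma on log2(FPKM + 0.1), 1 by limma on log2(FPKM + 1), and 1 with the replicate block, and 1 to 7 when 1 library was left out. In IT against FIT, none was called, 4 by DESeq2, 4 in one fit of all libraries and 0 to 0 when 1 library was left out. Between the days of DP-3, 6 were called, 2 with an FPKM minimum of 1, 1 by limma on log2(FPKM + 1), 2 in one fit of all libraries, 3 with the replicate block, and 2 to 6 when 1 library was left out. In D-3 against D-2, 7 were called, 4 with an FPKM minimum of 1, 2 by limma on log2(FPKM + 1), and 5 to 9 when 1 library was left out. The minimum of 1 leaves fewer genes tested and the pseudocount of 1 shrinks low genes; for the other shifts the cause was not tested. With the replicate block, 7 were called in D-3 against FIT and 6 in D-2 against FIT. The share of all genes called under these alternatives is not given here, so their counts are not read as a result about Wnt genes. With CTTTGTA and CTTTGTT searched as well, a choice made after seeing the data, 4 promoter windows of Wnt genes held a match instead of 1, as more spellings were allowed. The shallowest library, FIT replicate 3, holds 23721666 counts and limits what the comparisons with FIT can show for genes under 1 FPKM.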
